A study of Homo sapiens with 12 samples.

Results

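HepG2 cells given dexamethasone together with KLA were compared with cells given vehicle. HepG2 is an established line from a human hepatoma that keeps many functions of hepatocytes. The comparison rests on 6 of the 12 RNA-seq libraries of the study: the 3 labelled DexKLA and the 3 labelled DMSO, chosen by their labels alone. The other 6 libraries (3 with dexamethasone alone, Dex, and 3 with KLA alone) entered the fit and are used where the pair of agents is set against each agent. All 12 libraries came from wild-type cells that spent 24 h in charcoal-stripped serum, which is low in steroids, before a treatment of 24 h. The doses were 50 nM dexamethasone, KLA labelled as 100 ng/µl, both of these in DexKLA, and 0.1% DMSO as the vehicle. The labels do not spell out KLA, its dose unit could not be checked, and whether treated cells also received DMSO is not stated. Nor is it stated whether replicates were separate cultures, so every p-value measures the spread between these libraries only, which may be technical.

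Dexamethasone binds the glucocorticoid receptor, a nuclear receptor that is held in the cytoplasm by chaperones and, once bound, enters the nucleus and activates or represses genes. In hepatocytes its textbook targets lie in gluconeogenesis, amino acid breakdown and the acute-phase response. Kdo2-lipid A, the active part of lipopolysaccharide, is commonly abbreviated KLA, but the labels do not say that this is meant. Lipopolysaccharide is sensed by CD14, LY96 and TLR4, which signal through adaptor proteins to the transcription factor NF-kB, and glucocorticoids are known to damp NF-kB targets in many cells.

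The 6 libraries were shallow and uneven. Over gene symbols, the DMSO libraries held 3317740, 5277463 and 4409643 counts and the DexKLA libraries 9289765, 4514606 and 11484497. On the first principal component (27.9% of the variance) DMSO replicate 1 lay at −39.6, away from −15.6 and −16.9 for the other DMSO libraries, and DexKLA replicate 3 lay at −5.49, away from 13.1 and 11.6 for the other DexKLA libraries. These libraries stood apart, so counts below are also given without them. All 19 hepatocyte markers were expressed, with ALB at 56990 to 72670 CPM (counts relative to the library total after TMM scaling) in DMSO and 74530 to 101100 in DexKLA. Of 13 macrophage and leukocyte markers, PTPRC, CD163, MARCO, FCGR1A, TYROBP and CD3E had no reads in the 6 libraries, and the summed level of the list was 3754 to 4328 CPM in DMSO and 3888 to 4461 in DexKLA, nearly all of it LYZ. RNA was measured in bulk, so fewer cells of a kind and less RNA per cell cannot be told apart.

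With both agents, 374 genes rose and 182 fell against vehicle, out of 13166 tested (4.22% called, 2.84% higher and 1.38% lower). A gene is called when its p from edgeR's quasi-likelihood test, adjusted by Benjamini and Hochberg's method across the whole table, was under 0.05. The called changes were mostly small. Their median size was 0.54 on the log2 scale, and 36 rises and 16 falls exceeded 2-fold. All 3 DexKLA libraries lay above all 3 DMSO libraries in 1761 genes (13.4%) and below them in 1690 (12.8%). The first group includes the scaffold gene HOMER2 and the fetal plasma protein AFP, the second the fibrinogen chain FGA and the vitamin D hydroxylase CYP24A1.

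**Figure D1:**
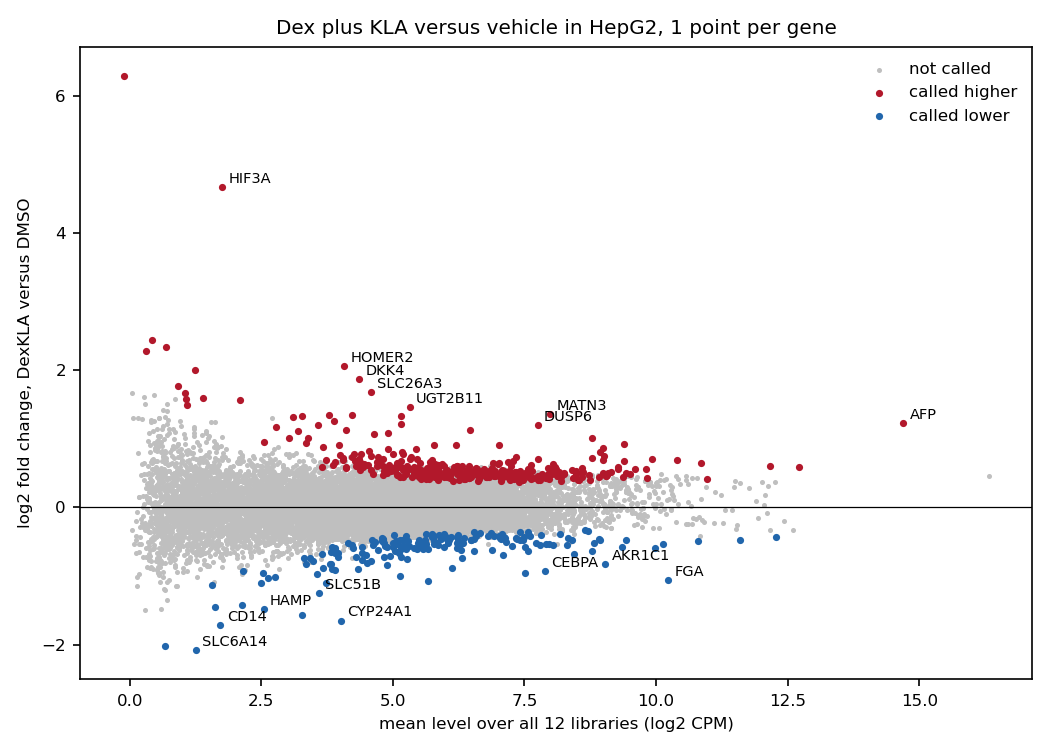
Each point is 1 of the 13166 tested genes, with its mean level over all 12 libraries (log2 CPM) on the x axis and its fitted log2 change with DexKLA against DMSO on the y axis; called genes are red (374 higher) or blue (182 lower). Most called genes sit within 1 log2 unit of 0, and the unlabelled point above HIF3A is LOC285847, which had no reads in DMSO, so that its fitted change is no measure of size.

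The number of calls rested heavily on single libraries. It was 48 without DMSO replicate 1, 213 and 247 without the other DMSO libraries, 95 and 88 without DexKLA replicates 1 and 2, and 1461 without DexKLA replicate 3. Leaving out a library of another group, which changes the spread and the set of genes tested, gave 272 without Dex replicate 3 and 1079 without KLA replicate 3, of 13770 and 12858 tested. With both DMSO replicate 1 and DexKLA replicate 3 left out, 542 genes were called, of which 321 were among the 556. Called in each of the 12 fits that left out 1 library were 37 genes, 25 higher and 12 lower, and the text leads with these. Scaling by library size alone moved the share of calls that were higher from 67.3% to 27.7%, with the median change of all genes at −0.12 in place of −0.02. Genes called higher had shorter transcripts (median 2484.5 bases) than genes called lower (3689 bases). With the smooth trend on transcript length removed, 818 genes were called, 529 of them among the 556.

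**Figure D2:**
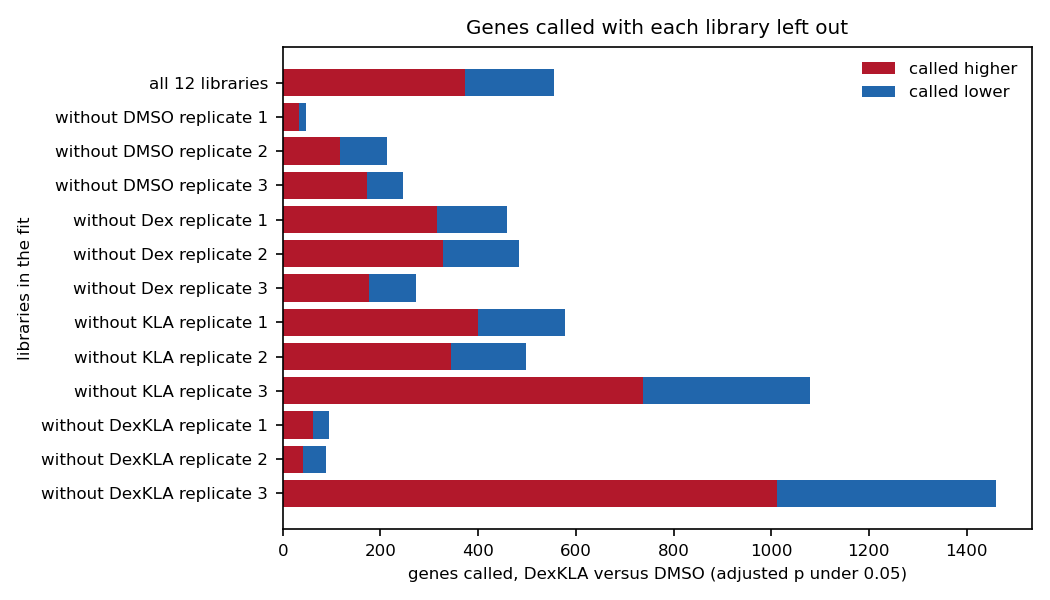
Bars give the number of genes called in DexKLA versus DMSO with all 12 libraries (556) and with each library left out in turn, split into higher (red) and lower (blue). The count runs from 48 without DMSO replicate 1 to 1461 without DexKLA replicate 3.

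The largest rises that were called in every fit leaving out 1 library were those of HIF3A, HOMER2, DKK4, SLC26A3, UGT2B11 and MATN3. HOMER2, a scaffold protein that ties receptors to calcium stores (hg38 chromosome 15, 82848984 to 82952720, on the minus strand), had levels of 6.19, 7.72 and 6.99 CPM in the DMSO libraries and 28.8, 28.8 and 30.9 CPM with DexKLA. The groups lay far apart and each was tight. Its log2 change was 2.07 ± 0.16 (standard error, adjusted p = 1.42e-07, edgeR). HIF3A, a member of the hypoxia-inducible factor family that can oppose its relatives (chromosome 19, 46303619 to 46343433, plus strand), had 1 count in each DMSO library and 52, 31 and 62 counts with DexKLA. That is 0.282, 0.179 and 0.218 CPM against 5.94, 7.20 and 5.15 CPM. The 3 DMSO values are under the limit of 3 counts, so the fitted change of 4.68 is uncertain. Summed over libraries and divided by their totals, the counts differed 24.9-fold, with an exact 95% interval of 8.34 to 122 that covers counting error only. MATN3, a matrix protein of cartilage (chromosome 2, 19992052 to 20012668, minus strand), rose from 124, 149 and 149 CPM to 316, 376 and 396 CPM. Every DexKLA library thus held over 2 times the highest DMSO value, with a log2 change of 1.36 ± 0.11 (adjusted p = 1.42e-07, edgeR).

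For DKK4, a secreted antagonist of Wnt signalling (chromosome 8, 42374063 to 42377229, minus strand), levels were 6.76, 9.33 and 10.5 CPM in DMSO and 25.7, 37.8 and 36.1 CPM with DexKLA. The log2 change was 1.87 ± 0.24 (adjusted p = 0.000118, edgeR). SLC26A3, a chloride and bicarbonate exchanger of the intestine, went from 7.88, 10.4 and 12.7 CPM to 32.4, 44.6 and 26.3 CPM. Its DexKLA libraries spread widely, and the log2 change was 1.69 ± 0.20 (adjusted p = 3.28e-05, edgeR). UGT2B11, a member of the enzymes that attach glucuronic acid to steroids (chromosome 4, 69199951 to 69214748, minus strand), rose from 16.9, 21.2 and 24.7 CPM to 50.5, 71.5 and 55.3 CPM (1.47 ± 0.15, adjusted p = 6.97e-06, edgeR). Its relatives in the UGT2B family are near-identical in places, and LOC105377267 overlaps it on the opposite strand and also rose (1.34 ± 0.21). Whether reads were counted by strand is not given in the sources used here. All 6 genes of this and the previous paragraph were called in every fit that left out 1 library.

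**Figure D3:**
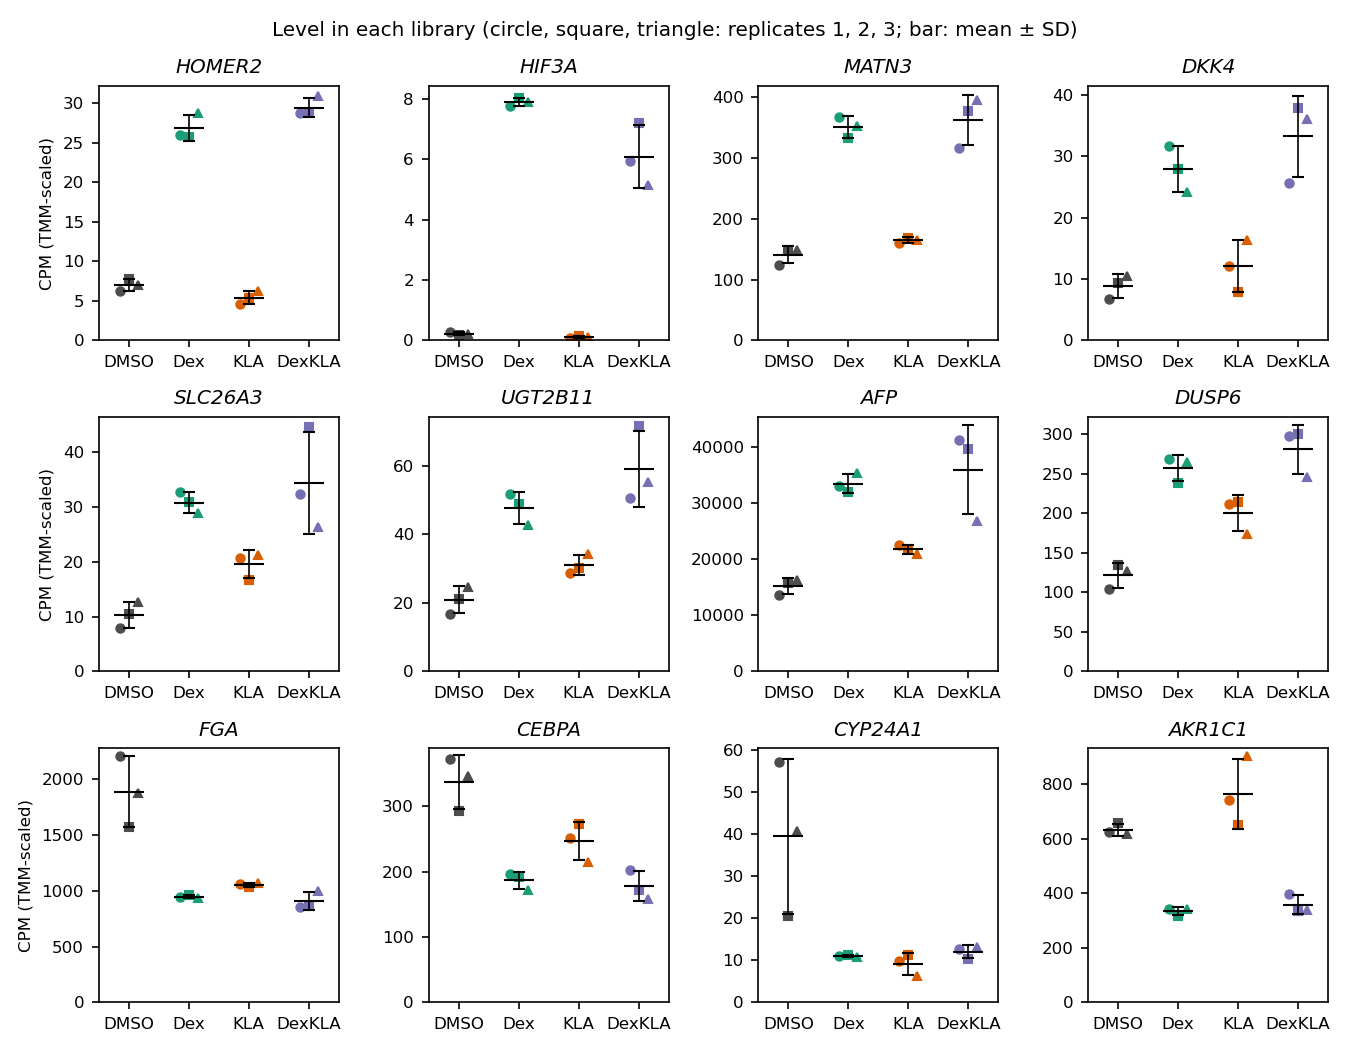
Levels (CPM after TMM scaling, linear axes from 0) of 12 genes in each of the 12 libraries by group, with circles, squares and triangles for replicates 1, 2 and 3 and bars for mean ± SD over 3 libraries. In all 12 genes the DexKLA libraries lie wholly above or wholly below the DMSO libraries, a condition of the choice for those among the largest rises and falls. The DexKLA libraries sit near the Dex libraries, for example HOMER2 at 28.8 to 30.9 with DexKLA and 25.8 to 28.8 with Dex.

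The other 6 of the 12 largest rises were genes of low level, and each lost its call without at least 1 library, DMSO replicate 1 in every case. LGI4, a secreted protein of glia, and FXYD3, a regulator of the sodium pump, are neighbours on chromosome 19 and stood at 1.82 ± 0.602 and 1.18 ± 0.276 CPM (SD, n = 3) in DMSO against 5.93 ± 1.71 and 3.99 ± 2.19 CPM with DexKLA. GGT5, which cleaves glutathione conjugates, had 2 to 4 counts per DMSO library and 16 to 37 with DexKLA, a pooled ratio of 3.81 (95% counting interval 1.96 to 8.26). RGS5, a brake on G-protein signalling, had a pooled ratio of 3.13 (1.64 to 6.57). RAMP1, a partner of calcitonin-type receptors, had 2.81 (1.46 to 5.92). SNAI3, a zinc-finger repressor with SNAI3-AS1 on the opposite strand, had 2.61 (1.39 to 5.33).

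Among the 12 largest falls, CYP24A1 was the only gene called in every fit that left out 1 library. CYP24A1, the hydroxylase that inactivates vitamin D (chromosome 20, 54153446 to 54173986, minus strand), was found at 57.2, 20.4 and 40.8 CPM in DMSO and at 12.8, 10.2 and 13.2 CPM with DexKLA. The DMSO libraries differed among themselves by more than 2-fold, and the log2 change was −1.65 ± 0.26 (adjusted p = 0.00122, edgeR). SLC6A14, a broad amino acid transporter, fell from 1.69, 3.95 and 2.18 CPM to 0.685, 0.464 and 0.665 CPM. With 2 to 8 counts in a DexKLA library, its pooled ratio was 0.217 (95% counting interval 0.113 to 0.398), and its call ended without DMSO replicate 2. HAMP, the iron hormone hepcidin, went from 10.7, 7.89 and 8.73 CPM to 4.68, 3.95 and 1.66 CPM (−1.48 ± 0.31, adjusted p = 0.0133, edgeR). SLC51B, part of the transporter that returns bile acids to the blood, went from 28.2, 14.9 and 19.6 CPM to 11.1, 8.82 and 6.40 CPM (−1.24 ± 0.22, adjusted p = 0.00416, edgeR). The calls of HAMP and SLC51B both ended without DMSO replicate 1, the highest library of each.

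The calls of the other falls also depended on single libraries. ATP2B2, a calcium pump of the plasma membrane, CDH1, the epithelial cadherin, MCC (opposite DCP2), EXD3, HAL, which breaks down histidine, and HOXD1 (opposite HAGLR) fell by 1.08 to 1.56 on the log2 scale, and none stayed called without DMSO replicate 1. HCAR3, a receptor for hydroxylated fatty acids that is near-identical to HCAR2, fell by 1.43 and lost its call without DMSO replicates 2 or 3 or DexKLA replicate 1. For EXD3, whose counted transcript is a noncoding RefSeq variant, the longest transcript gave 0.09 in place of −1.13, so its direction differed between annotated transcripts.

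The receptor gene and a few of its classical readouts are given first. NR3C1, the receptor gene, stood at 32.8 ± 3.81 CPM (SD, n = 3) in DMSO and 29.8 ± 2.44 with DexKLA (−0.14 ± 0.17, adjusted p = 0.673, edgeR). FKBP5, a chaperone partner that glucocorticoids induce in most tissues, held 22.5, 25.3 and 29.2 CPM in DMSO and 36.3, 33.0 and 48.6 CPM with DexKLA. The groups did not overlap, but the rise was modest (0.63 ± 0.17, adjusted p = 0.0423, edgeR), it ended without any single DMSO or DexKLA library, and LOC285847 shares its strand and position. PER1, a clock gene with a strong textbook response, had 7.82 ± 0.435 CPM in DMSO and 8.50 ± 1.09 with DexKLA (adjusted p = 0.849, edgeR). TSC22D3, known as GILZ, had 3 counts in each DMSO library and 13, 3 and 13 with DexKLA, too few to test.

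Of 26 tested targets of the receptor, 7 were called higher and 2 lower, beside 2.84% and 1.38% of all genes, with a median log2 change of 0.16 against −0.02 for all genes. The count was 3 and 0 without DMSO replicate 1, 6 and 2 without DexKLA replicate 3, and 5 and 0 without both. Besides HIF3A, the list held CAVIN2, a coat protein of caveolae, with 41.1, 38.8 and 41.2 CPM in DMSO and 66.9, 71.5 and 87.4 CPM with DexKLA. Its DMSO libraries were nearly equal and all DexKLA libraries higher (0.91 ± 0.12, adjusted p = 0.00027, edgeR), and like HIF3A it was called without each library in turn. FKBP5, the repressor KLF9 (0.61), the EGF receptor inhibitor ERRFI1 (0.56), the transcription factor CEBPD (0.67) and the metal-binding MT2A (0.61) were the other members called higher. PCK1, the rate-limiting enzyme of gluconeogenesis that glucocorticoids raise in liver, was lower, at 74.3, 40.9 and 53.5 CPM in DMSO and 24.9, 37.1 and 23.8 CPM with DexKLA (−0.997 ± 0.20, adjusted p = 0.00838, edgeR). Its call and that of SGK1 (−0.58), a kinase that regulates ion transport, did not hold without each library. Members named here and below beyond the 3 smallest p-values of a list were chosen after their values were seen. The lists themselves were chosen with earlier results of these data known, so their counts beside the shares of all genes are descriptions and no independent test. List counts below for DexKLA versus DMSO with all 12 libraries stand beside the same shares of all genes, 2.84% higher and 1.38% lower.

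In gluconeogenesis and amino acid catabolism, 2 of 27 tested genes were called, PCK1 lower and GNMT higher, beside 4.22% of all genes. The median was 0.00. GNMT, which uses up S-adenosylmethionine by methylating glycine, went from 7.32, 4.49 and 2.84 CPM to 12.3, 12.1 and 11.1 CPM. The DMSO libraries scattered and the DexKLA libraries were close together, all higher (1.32 ± 0.24, adjusted p = 0.00535, edgeR). It was called without each library in turn, but the readthrough gene CNPY3-GNMT spans it and PEX6 overlaps it on the other strand. TAT, a classical target that breaks down tyrosine, stood at a log2 change of 0.58 and was not called.

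The promoter of GNMT is shown because it was the only one among the named genes that held the palindrome of the glucocorticoid receptor. Promoters (250 bases before to 50 after the start site) came from RefSeq, build GRCh38.p14, and 65 of the 83 named genes had one. The motifs, searched on both strands, were chosen with the values known, and a match is a description of letters, not of binding. The palindrome, GNACA and TGTNC with 3 bases of any kind between them, was in 0.39% of 35116 promoters, in 0 of the 8 with a promoter among the 12 largest rises and in 0 of 9 among the falls. A single arm of it, AGAACA, was in 14.8% of promoters, and in 1 of the 8 (FXYD3) and 1 of the 9 (HAL). The FXYD3 window (chr19:35117750-35118049) is that of another start site than the counted transcript's, which begins at 35115823. In GNMT (chr6:42960504-42960803, plus strand) the match, in capitals, begins 19 bases after the start site, inside the transcribed part.
GNMT: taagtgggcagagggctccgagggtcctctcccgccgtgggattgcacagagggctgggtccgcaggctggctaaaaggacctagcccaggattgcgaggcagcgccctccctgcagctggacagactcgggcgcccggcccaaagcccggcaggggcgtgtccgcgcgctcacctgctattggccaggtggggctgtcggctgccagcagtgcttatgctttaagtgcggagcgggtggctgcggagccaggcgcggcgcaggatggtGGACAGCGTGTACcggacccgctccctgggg

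Genes of lipopolysaccharide sensing were low, and CD14 alone among 17 tested was called, beside 4.22% of all genes. CD14, the co-receptor that hands lipopolysaccharide to TLR4, fell from 10.7, 3.95 and 4.58 CPM to 2.74, 1.39 and 1.33 CPM. DMSO replicate 1 was far above the other DMSO libraries, and the log2 change was −1.72 ± 0.39 (adjusted p = 0.0203, edgeR). The call ended without DMSO replicate 1 or DexKLA replicate 2. TLR4 had 1, 1 and 4 counts in DMSO and 1, 3 and 4 with DexKLA, too few to test. LY96, its partner, stood at 1.36 ± 0.21 and 1.61 ± 0.217 CPM (SD, n = 3; adjusted p = 0.782, edgeR). The list had a median of −0.15.

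Of 19 tested NF-kB targets 2 were called higher and none lower, beside 2.84% and 1.38% of all genes, with a median of −0.06. Neither was called without DMSO replicate 1. CCL20, a chemokine that attracts lymphocytes and dendritic cells, stood at 203, 262 and 295 CPM in DMSO and at 516, 718 and 312 CPM with DexKLA. DexKLA replicate 3 lay just above the highest DMSO library and the other DexKLA libraries far above it (1.02 ± 0.23, adjusted p = 0.0183, edgeR). CCL20 stood at 458 ± 69.0 CPM with Dex alone and at 528 ± 175 CPM with KLA alone. BIRC2, an inhibitor of apoptosis, rose by 0.46 (139 ± 9.60 CPM after 101 ± 12.6). The feedback inhibitors NFKBIA (0.11) and TNFAIP3 (0.32) and the chemokine CXCL8 (0.69) were not called. None of 24 interferon-stimulated and MHC class I genes was called (median −0.10). The promoter of CCL20 (chr2:227813592-227813891, plus strand, GRCh38.p14) is shown for its match to the NF-kB motif, GGG and TTTCC with any 2 bases between them, read here on the reverse strand and in capitals, at −79 from the start site. That motif was in 1.91% of promoters, and in 0 of the 8 and 0 of the 9.
CCL20: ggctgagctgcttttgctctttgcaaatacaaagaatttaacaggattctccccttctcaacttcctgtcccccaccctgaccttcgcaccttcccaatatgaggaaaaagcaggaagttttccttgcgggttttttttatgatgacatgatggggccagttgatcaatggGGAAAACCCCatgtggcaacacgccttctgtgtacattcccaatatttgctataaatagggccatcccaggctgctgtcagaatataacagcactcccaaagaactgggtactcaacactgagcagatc

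Among plasma proteins of the acute phase and of clotting, more genes were called lower than higher. Of all genes, 1.38% were called lower and 2.84% higher. Of 20 tested acute-phase genes 6 were lower and 1 higher (median −0.15), and the count was 1 and 1 without DMSO replicate 1, 5 and 1 without DexKLA replicate 3, and 3 and 1 without both. FGA, the alpha chain of fibrinogen (chromosome 4, 154585275 to 154590742, minus strand), went from 2210, 1575 and 1877 CPM to 858, 862 and 999 CPM. All DexKLA libraries were close to each other and well under the lowest DMSO library (−1.06 ± 0.12, adjusted p = 1.58e-05, edgeR), and the call held without each library. FGB, the beta chain, fell from 1346 ± 170 to 932 ± 62.7 CPM (−0.53 ± 0.11, adjusted p = 0.0109, edgeR), a call lost without DMSO replicates 1 or 3. The gamma chain FGG stood at −0.32 and was not called. The protease inhibitors A2M (−0.47) and SERPINA3 (−0.44), complement C3 (−0.48) and HAMP were the other members called lower, MT2A the one called higher.

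FGA is shown for its match to the C/EBP motif TTGCNNAA, the binding letters of a family that drives many plasma protein genes; 10.5% of promoters held it. The match, read on the reverse strand and in capitals, is at −141 from the start site (chr4:154590693-154590992, minus strand, GRCh38.p14). Among the 12 largest rises and falls, HIF3A and HAL held the motif. The HIF3A window (chr19:46296792-46297091) is that of another start site than the counted transcript's, which begins at 46303619.
FGA: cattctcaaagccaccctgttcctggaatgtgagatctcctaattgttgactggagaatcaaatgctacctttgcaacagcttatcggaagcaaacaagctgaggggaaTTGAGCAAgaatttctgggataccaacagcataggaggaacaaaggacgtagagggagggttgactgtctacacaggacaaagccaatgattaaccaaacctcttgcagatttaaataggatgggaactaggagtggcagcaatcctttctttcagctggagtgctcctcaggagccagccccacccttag

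Of 37 tested coagulation and complement genes 7 were lower and 3 higher (median −0.22), beside 1.38% and 2.84% of all genes. The count was 0 and 1 without DMSO replicate 1, 8 and 3 without DexKLA replicate 3, and 3 and 3 without both. MBL2, mannose-binding lectin of innate immunity, fell from 34.6, 24.0 and 34.5 CPM to 14.7, 14.9 and 19.3 CPM (−0.90 ± 0.17, adjusted p = 0.00721, edgeR). The clotting cofactor kininogen KNG1 (−0.91), the thrombin inhibitor SERPIND1 (−0.55), vitronectin VTN (−0.56), clusterin CLU (−0.47), C3 and C2 (−0.36) were the others. The 3 that rose were CPB2, which slows the breakdown of clots, TFPI, which inhibits tissue factor (0.70), and FGL1, a fibrinogen-like hepatokine (0.68). CPB2 went from 98.0, 115 and 128 CPM to 186, 219 and 168 CPM (0.74 ± 0.12, adjusted p = 0.00169, edgeR). It was the only member of this list called without each library, and CPB2-AS1 lies opposite it.

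Among apolipoproteins and other secreted proteins, 4 of 34 were higher and 3 lower, beside 2.84% and 1.38% of all genes. AFP, the albumin relative of fetal liver and hepatomas (chromosome 4, 73436221 to 73456174, plus strand), rose from 13700, 15820 and 16290 CPM to 41330, 39660 and 26860 CPM. DexKLA replicate 3 was lower than the other DexKLA libraries and still above every DMSO library (1.24 ± 0.15, adjusted p = 7.49e-05, edgeR). IGFBP2, a carrier of insulin-like growth factors, rose from 20.8, 20.4 and 18.1 CPM to 47.2, 53.9 and 48.7 CPM (1.33 ± 0.14, adjusted p = 1.01e-05, edgeR). RBP4, the carrier of retinol, fell from 627, 523 and 502 CPM to 349, 359 and 359 CPM (−0.63 ± 0.11, adjusted p = 0.00305, edgeR). AFP, IGFBP2 and RBP4 were called without each library. Without DMSO replicate 1 the list had 2 higher and 1 lower, and without DexKLA replicate 3 it had 8 and 3. APOC1 (0.51) and APOC2 (0.54) rose, and AHSG (−0.43) and IGFBP4 (−0.44) fell, without that stability. The median of the list was 0.07 and turned to −0.04 with library size alone and with the length trend removed.

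Of 22 tested hepatocyte transcription factors 3 were called lower and 1 higher, beside 1.38% and 2.84% of all genes. In 4 of the 22 the fitted change was above 0, and the median was −0.24. CEBPA, a main regulator of hepatocyte genes (chromosome 19, 33299934 to 33302564, minus strand), went from 372, 292 and 347 CPM to 203, 171 and 158 CPM. The groups were well separated (−0.92 ± 0.12, adjusted p = 0.00015, edgeR), without each library too. NR1H4, the bile acid receptor FXR, fell from 45.4 ± 3.23 to 28.8 ± 7.05 CPM and the orphan receptor NR2F2 fell by 0.59. CEBPD, a relative of CEBPA that rises in the acute phase, went the other way, from 27.9, 24.0 and 26.0 CPM to 42.3, 51.8 and 31.8 CPM (0.67 ± 0.16, adjusted p = 0.0255, edgeR). The list had 0 higher and 1 lower without DMSO replicate 1, and 1 and 3 without DexKLA replicate 3. HNF4A (−0.23) and FOXA2 (−0.29) were not called.

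Fatty acid and triglyceride synthesis genes were called in 1 direction, with 7 of 26 lower, none higher and a median of −0.22. Of all genes, 1.38% were called lower and 2.84% higher. The count of lower genes in this list was 0 without DMSO replicate 1, 9 without DexKLA replicate 3 and 5 without both. SREBF1, the transcription factor of these genes, which lies opposite RAI1, stood at 146, 86.1 and 104 CPM in DMSO and at 58.9, 61.5 and 78.8 CPM with DexKLA. DMSO replicate 1 was again the highest (−0.74 ± 0.15, adjusted p = 0.0109, edgeR). DGAT2 (−0.56) and DGAT1 (−0.42), which make triglycerides, ACSL3 (−0.52), which activates fatty acids, AGPAT2 (−0.95), and FASN (−0.59) and ACACA (−0.58, 2 annotated loci), which build fatty acids, were the others. In fatty acid oxidation, the carnitine transferase CPT1A (−0.61) was called lower and ECI2 (0.48) higher. In cholesterol synthesis and uptake, IDI1 (0.56) and SC5D (0.51) were called higher, of 28 tested.

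Drug-metabolising enzymes moved both ways, 5 of 29 higher and 2 lower (median −0.03), beside 2.84% and 1.38% of all genes. The count was 3 and 1 without DMSO replicate 1 and 6 and 2 without DexKLA replicate 3. CYP3A5, a cytochrome of a class that glucocorticoids induce, rose from 6.19, 6.10 and 7.86 CPM to 14.2, 16.2 and 16.1 CPM. The counted transcript is a noncoding RefSeq variant of the gene. Each DexKLA library was well above the highest DMSO library (1.20 ± 0.19, adjusted p = 0.00169, edgeR), also without each library; ZSCAN25 lies opposite, and CYP3A genes resemble each other closely. CYP3A7, the fetal form, rose by 0.67 and the glucuronosyltransferases UGT2B10 and UGT2B7 rose by 0.72 and 0.70, while CYP1A1 fell by 0.60. CYP3A4, the main adult form, stood at 0.56 and was not called. AKR1C1, which inactivates progesterone (chromosome 10, 4963415 to 4983282, plus strand), fell from 624, 657 and 618 CPM to 400, 337 and 338 CPM. Its groups were tight and apart (−0.82 ± 0.12, adjusted p = 0.000396, edgeR), without each library too, although reads may be shared with the close copy AKR1C2 (−0.39, not called). Of 28 aldo-keto reductases and NRF2 targets, AKR1C1, the heme oxygenase HMOX1 (−0.80) and OSGIN1 (−0.70) were lower and none higher. Without DMSO replicate 1 the list had 1 lower and 0 higher, with the calls of HMOX1 and OSGIN1 lost, and without DexKLA replicate 3 it had 3 lower and 2 higher. NQO1, the classical NRF2 target, stood at −0.11 and was not called.

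Of 22 genes of bile acid synthesis and transport 3 were lower (SLC51B, NR1H4 and KLB) and 1 higher. The shares of all genes were 1.38% and 2.84%. KLB, the co-receptor through which FGF19 shuts down bile acid synthesis, fell from 216, 163 and 203 CPM to 116, 108 and 133 CPM (−0.69 ± 0.12, adjusted p = 0.00423, edgeR), a call that held without each library. BAAT, which joins bile acids to amino acids and has 2 annotated loci, rose by 0.81. CYP7A1, the rate-limiting enzyme, stood at 0.66 and was not called.

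Of 26 ERK feedback and growth factor genes, DUSP6 and ERRFI1 were called higher and none lower, beside 2.84% and 1.38% of all genes. Without DMSO replicate 1, ERRFI1 lost its call and 1 gene was called higher. DUSP6, the phosphatase that switches off ERK, went from 104, 134 and 127 CPM to 297, 300 and 245 CPM (1.20 ± 0.12, adjusted p = 4.80e-06, edgeR). All DexKLA libraries held well over the highest DMSO value, without each library too, while SPRY4 (0.26) and DUSP4 (0.81), other brakes on the pathway, were not called. FST, which binds and blocks activin, went from 410, 413 and 482 CPM to 278, 310 and 226 CPM (−0.68 ± 0.12, adjusted p = 0.00535, edgeR), also a steady call. Its relative FSTL3 rose by 0.65, a call lost without DMSO replicates 2 or 3 or DexKLA replicates 1 or 2. The Wnt target AXIN2 (−0.19) was not called beside DKK4, and 2 of 28 Wnt, activin and TGF-beta genes were higher and 1 lower. In the extracellular matrix list, 1 of 20 was higher (MATN3) and 1 lower (the protease inhibitor TIMP3, −0.42, opposite SYN3), with a median of −0.22.

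Hypoxia-responsive and stress genes showed isolated calls. Of all genes, 2.84% were called higher and 1.38% lower. Besides HIF3A, the mitophagy gene BNIP3 (354 ± 55.9 to 599 ± 132 CPM, SD, n = 3), the glucose transporter SLC2A3 (0.64) and ANKRD37 (1.14) were higher of 36 tested, and VEGFA (−0.10), CA9 (0.31) and LDHA (0.23) were not called. The chaperones of the endoplasmic reticulum HSPA5 (−0.57) and CALR (−0.47) and the transcription factor CREB3L3 (−0.88) were lower of 30 unfolded protein and stress genes, and ATF6 (0.53) and the mTOR inhibitor DDIT4 (0.65) higher. MT2A and the zinc importer SLC39A10 (0.47) were higher and the importer SLC39A14 (−0.45) lower of 12 metallothionein and zinc genes. Of 33 cell cycle genes CDK1 (0.54) was called, of 21 amino acid transporters SLC6A14, and of 17 clock genes none. Of the genes in this paragraph HIF3A was the only one called in every fit that left out 1 library.

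**Figure D4:**
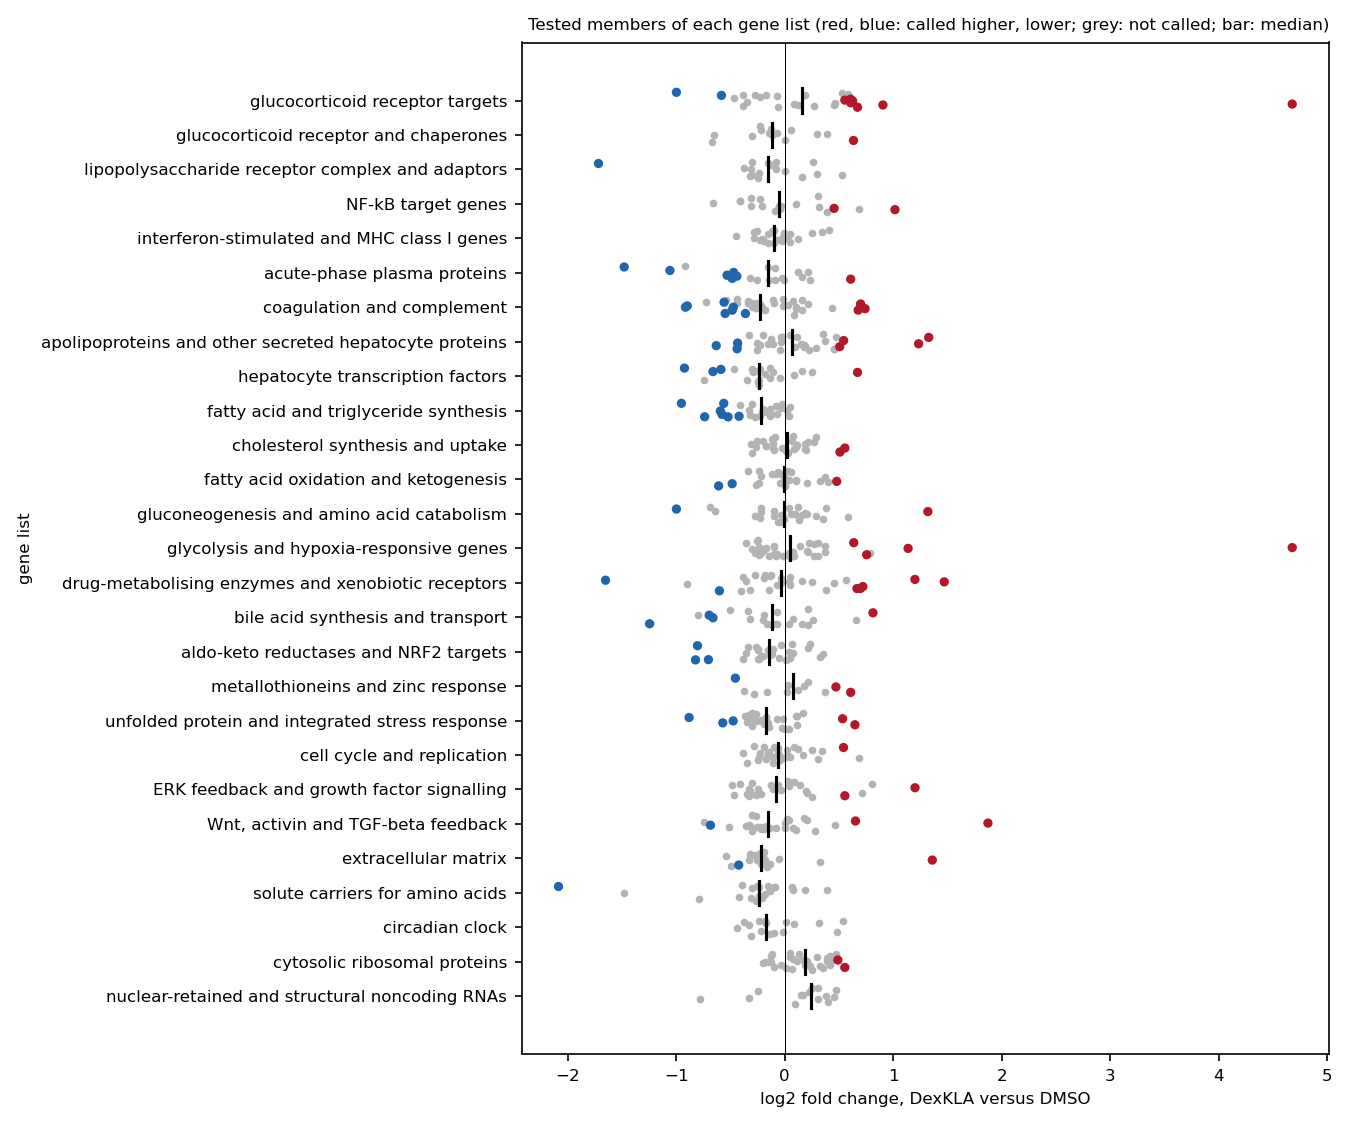
Each point is a tested member of a gene list (y axis) at its fitted log2 change with DexKLA against DMSO (x axis), red or blue where called and grey where not; black bars are list medians. Medians lie within 0.25 of 0, with all 7 called genes of fatty acid and triglyceride synthesis on the left and single large values such as HIF3A, DKK4 and SLC6A14 far from their lists.

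Ribosomal protein genes were checked as a sign of RNA quality. Their median log2 change was 0.19, with 2 of 33 called higher (RPL32 and RPS18, which has 6 annotated loci), none without DMSO replicate 1, 16 without DexKLA replicate 3 and 14 without both. The 14 nuclear or structural noncoding RNAs had a median of 0.24 with none called. Their part in the changes above was not tested.

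Adding KLA to dexamethasone gave no call. No gene passed the threshold in DexKLA versus Dex by edgeR (0 of 13166, 0%), DESeq2 or limma voom, with 935 at an unadjusted p under 0.05 and a smallest adjusted p = 0.695 (edgeR). The median 95% interval of a gene's difference was 0.31 on the log2 scale to either side, without adjustment for the number of genes. The fitted difference exceeded 2-fold in 29 genes, none of them called. The smallest difference that could have been called was not determined. For HOMER2 the difference was 0.14 (−0.14 to 0.42), for AFP 0.10 (−0.21 to 0.42), for CEBPA −0.07 (−0.33 to 0.18) and for CYP24A1 0.15 (−0.43 to 0.73). Intervals that did not reach 0, unadjusted, were those of HIPK1 (0.51, 0.22 to 0.80), RPPH1 (−1.34, −2.05 to −0.64) and CD36 (0.41, 0.10 to 0.73), among others, each at an adjusted p = 0.695 (edgeR). Across all genes the DexKLA versus Dex change followed transcript length (Spearman's rho = 0.39, a description). Of 33 ribosomal protein genes, 2 had a fitted difference above 0 (median −0.13). The part of length in these differences was not tested.

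Against vehicle, 270 genes were called with Dex alone (2.05%, 1.22% higher and 0.835% lower) and 1806 with KLA alone (13.7%, 7.78% higher and 5.94% lower). These comparisons and the main one share their 3 DMSO libraries, so the values are set side by side only. Depth was unlike, with 15998657, 20933501 and 18614368 counts in the KLA libraries and 3642685, 17782057 and 4613811 in the Dex libraries. Of 33 ribosomal protein genes, 16 were called higher with KLA (median 0.37) and 5 with Dex (median 0.30). The part of depth or RNA quality in the numbers of calls was not tested, so these do not rank the agents. Of the 26 receptor targets, Dex gave 4 higher and 3 lower and KLA 0 and 3. Of the 26 fatty acid and triglyceride synthesis genes, Dex gave 5 lower and KLA 9, with none higher. For HOMER2 the log2 changes were 1.93 (Dex), −0.37 (KLA) and 2.07 (DexKLA). MATN3 had 1.31, 0.22 and 1.36 in that order, and AKR1C1 −0.92, 0.27 and −0.82. These 3 genes were called with Dex and not with KLA. FGA had −0.99, −0.84 and −1.06, KLB −0.71, −0.69 and −0.70, and CYP24A1 −1.80, −2.08 and −1.65, all of them called with each agent. DUSP6 was intermediate with KLA, at 1.07, 0.71 and 1.20.

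**Figure D5:**
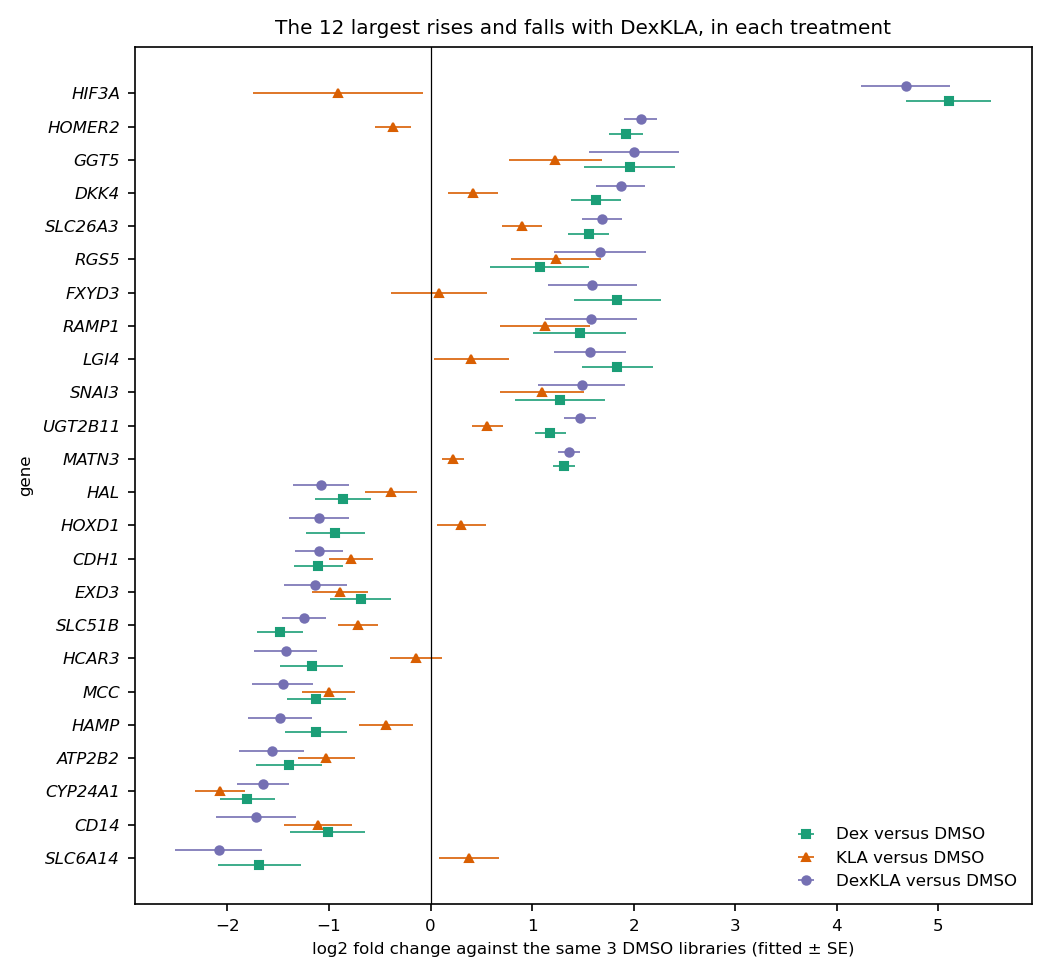
Fitted log2 changes ± standard error against the same 3 DMSO libraries for the 12 largest rises and 12 largest falls with DexKLA, with squares for Dex, triangles for KLA and circles for DexKLA. Circle and square lie on the same side of 0 for all 24 genes, furthest apart for CD14 (−0.70) and RGS5 (0.59), and the triangles of HIF3A, HOMER2, SLC6A14 and HOXD1 lie on the other side of 0.

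Against KLA alone, 86 genes differed (58 higher and 28 lower, 0.653% of those tested), 35 of them without each library in turn. The contrasted means use no DMSO library, but those libraries entered the set of genes tested, the scaling and the shared spread. Across all genes the DexKLA versus KLA change followed transcript length (Spearman's rho = 0.49, a description), and the part of length in it was not tested. HOMER2 was 2.44 ± 0.14 above KLA (adjusted p = 3.48e-10, edgeR), CAVIN2 1.16 ± 0.12 (4.58e-06), IGFBP2 0.90 ± 0.13 (0.000303), UGT2B11 0.91 ± 0.14 (0.000668) and GNMT 1.30 ± 0.19 (0.000668). PGC, a pepsinogen, held 140, 115 and 108 CPM with DexKLA and 53.2, 55.6 and 35.3 CPM with KLA (1.33 ± 0.15, adjusted p = 3.21e-05, edgeR). AKR1C1 was lower (−1.09 ± 0.12, adjusted p = 1.04e-05, edgeR), and AKR1B10 (−0.70) and ALDH1A1 (−0.59), enzymes of aldehydes and retinoids, were lower too, ALDH1A1 not when the 6 libraries of this comparison were fitted alone. FKBP5 was higher by 1.04 ± 0.16 (adjusted p = 0.000869, edgeR), with 15.4, 18.0 and 24.5 CPM in the KLA libraries, all under its DexKLA values. Of the 26 receptor targets 5 were higher and none lower, beside 0.441% and 0.213% of all genes. FGA (−0.21), KLB (−0.01), CYP24A1 (0.42), SREBF1 (−0.08), CCL20 (−0.04) and DUSP6 (0.49) were not called against KLA, and none of the fatty acid synthesis genes was.

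Whether the pair of agents departed from the sum of the single responses was tested with an interaction term. It was called for 5 of 13166 genes (0.038%, 0.0304% above and 0.0076% below the sum): CYP24A1, HIPK1, MYCBP2 and PRKAR1A above the sum and RPPH1 below it, with 2922 genes at an unadjusted p under 0.05. The form differed between the 5 genes. CYP24A1 had 39.5 ± 18.4 CPM in DMSO (SD, n = 3) and 11.03 ± 0.235, 9.14 ± 2.55 and 12.1 ± 1.62 CPM with Dex, KLA and DexKLA. It was low in all treated groups, and PRKAR1A too was lower in all of them than in DMSO. HIPK1, MYCBP2 and RPPH1 instead lay nearer to DMSO with both agents than with either alone. None of the 5 calls held without each library.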

How the data were processed

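RNA was sequenced from 12 HepG2 libraries, 3 in each of 4 groups taken from the labels. The values are expected counts per RefSeq transcript as deposited by the authors, partly in steps of 0.5. Per the submitters' processing notes, Trimmomatic, BWA 0.7.17 and HOMER 4.10 were used with build hg38, with no role given for each, and the strand setting is not given in the sources used here. Counts were rounded to whole numbers. Of 70507 transcripts, 406 without a gene symbol (1.71% to 2.55% of a library) were left out, and each of 28256 symbols was represented by its transcript with the highest total. Genes passing edgeR's filterByExpr with a minimum count of 10 were tested (13166) after TMM scaling, with edgeR 4.0.16's quasi-likelihood test (R 4.3.3) in a model with 1 mean per group over all 12 libraries, so that all groups share 1 estimate of the spread. P-values were adjusted by the Benjamini-Hochberg method over all tested genes. The procedure was tested on simulated data. DESeq2 1.42.0 and limma 3.58.1 (voom) served as alternatives, beside other scalings, filters, transcript choices and left-out libraries.

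No pairing by replicate number was seen: correlations of same-numbered deviations ran from −0.31 to 0.172. No block was used in the main fit, although such correlations cannot show that the samples were unpaired. Genes were named by a rule: from the called genes whose groups did not overlap and whose average log2 CPM reached 1, the 12 with the largest rise and the 12 with the largest fall, up to 3 called members of each gene list by p-value, receptor and lipopolysaccharide-sensing genes, and the 5 smallest p-values in each direction of the other comparisons. The members, lists and motifs were chosen with earlier results of these data known. Counting intervals are exact and cover counting error only. Results for a few genes are not reported here.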

Additional observations from a re-analysis of the deposited data

Results flagged for a closer look

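The effect of dexamethasone differed with and without KLA, by edgeR's interaction term, for 5 genes, each at an adjusted p = 0.0449. The values are the log2 effect of dexamethasone with KLA minus that without it. For CYP24A1, the vitamin D hydroxylase, the difference was 2.23, with 39.5, 11.03, 9.14 and 12.1 CPM on average in DMSO, Dex, KLA and DexKLA. HIPK1, a nuclear kinase, had 1.11, with 40.3, 26.1, 26.6 and 36.2 CPM in the same order. MYCBP2, a large ubiquitin ligase, had 1.21, with 27.6, 18.2, 17.9 and 26.6 CPM. PRKAR1A, the regulatory subunit of protein kinase A, had 0.82, with 343, 228, 201 and 236 CPM. RPPH1, the RNA of ribonuclease P, had −2.66, with 2.48, 5.52, 6.21 and 2.09 CPM. All 5 calls ended without DMSO replicate 1, without Dex replicate 2 or 3, and without DexKLA replicate 2 or 3, and with DMSO replicate 1 and DexKLA replicate 3 both left out. With the length trend removed, HIPK1, MYCBP2, PRKAR1A and RPPH1 lost the call and CYP24A1 kept it. The 33 ribosomal protein genes had a median interaction of −0.51, with 0 of them above 0 and none called. The part of transcript length or RNA quality in these 5 calls was not tested.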

How the results depend on the processing

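The number of genes called in DexKLA versus DMSO (556) was 920 with DESeq2, 326 with limma voom, 987 with no filter, 325 with the replicate block, and 48 to 1461 when 1 library was left out. The share called higher was 27.7% with library size alone, against 67.3%. For DexKLA versus Dex (0) it was 12 with no filter and 0 with the block. For DexKLA versus KLA (86) it was 204 with no filter, 38 with the 6 libraries of that comparison alone, 56 with DMSO replicate 1 and DexKLA replicate 3 both left out, 74 with the block, and 52 to 94 with 1 library left out. For the interaction (5) it was 0 with DESeq2's size factors, limma voom, the replicate block or both of those libraries left out, 2 with the length trend removed, 54 after thinning to the shallowest library, 230 with library size alone, 705 with DESeq2, 1040 with no filter, and 0 to 681 with 1 library left out. EXD3 turned from −1.13 to 0.093 with the longest transcript, and PER1, not called, from 0.08 to −0.011 with library size alone and −0.095 after thinning. Among results for single named genes, 1762 kept their direction and side of the threshold, 329 lost the call and 3 reversed. Of 71 named called genes, 20 held under every alternative run. The causes were not tested. With 3317740 counts in the shallowest DMSO library, genes near 1 CPM rest on a few reads. Leaving out both libraries together was chosen after seeing the data.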

Other observations

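Several genes called in each of the 12 fits that left out 1 library belong to no list above, or were not named by the rule, and were chosen after their values were seen. CD36, which takes up fatty acids, stood at 7.32, 7.71 and 11.1 CPM in the DMSO libraries and 21.6, 19.04 and 22.1 CPM with DexKLA (1.27 ± 0.17, adjusted p = 0.000203, edgeR). PTGDR2, a receptor for prostaglandin D whose end overlaps CCDC86 on the other strand, had 7.88, 12.2 and 9.17 CPM against 23.3, 28.8 and 24.9 CPM (1.35 ± 0.17, adjusted p = 0.000127, edgeR). ATAD2, a bromodomain protein of dividing cells, had 293, 410 and 402 CPM against 616, 729 and 669 CPM (0.86 ± 0.13). TM4SF1, a surface protein, had 628, 758 and 744 CPM against 1188, 1303 and 995 CPM. In none of these genes did the groups overlap.

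Lower with DexKLA was FURIN, the protease that matures many secreted proteins, with 114, 86.8 and 93.4 CPM in DMSO and 51.0, 46.0 and 61.3 CPM (−0.88 ± 0.14, adjusted p = 0.00122, edgeR). SCNN1A, the alpha subunit of the epithelial sodium channel that glucocorticoids raise in kidney and lung, had 51.2, 35.9 and 41.5 CPM against 23.8, 24.6 and 22.9 CPM (−0.84 ± 0.14, adjusted p = 0.00305, edgeR). DEPP1, a target of FOXO factors, had 293, 212 and 253 CPM against 166, 124 and 101 CPM (−0.95 ± 0.16). MAP4K4, a stress kinase, had nearly equal DMSO levels of 282, 284 and 284 CPM and 185, 192 and 206 CPM with DexKLA (−0.55 ± 0.10).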
